A study of Drosophila melanogaster with 3 samples.

Results

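The proteasome is the large protease that breaks down proteins tagged with ubiquitin. It has a barrel-shaped core of stacked alpha and beta rings, in which a few beta subunits cut the substrate, and a regulatory particle that sits on the barrel. The base of that particle holds a ring of ATPases (Rpt) which unfold the substrate and push it through the alpha ring, and the lid (Rpn) carries the enzyme that removes the ubiquitin chain. Flies have, beside the standard subunit genes, paralogs named with T or R, of which several are known for expression in the male germline.

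Proteasome subunit genes were taken by name: every gene whose symbol begins with Prosalpha or Prosbeta, or with Rpn or Rpt and a digit. The BDGP6.54 annotation holds 48 such genes, of which 31 had a line among the 11922 genes of the table. These were 20 of 32 standard subunits and 11 of 16 paralogs named with T or R. The genes not analysed here were Prosalpha2, Prosalpha3, Prosalpha4, Prosalpha6, Prosbeta4, Prosbeta6, Rpn8, Rpn10, Rpn13, Rpt2, Rpt5 and Rpt6, and the paralogs Prosalpha4T1, Prosalpha4T2, Prosbeta5R1, Prosbeta5R2 and Rpn13R. No list of subunits below is therefore a whole complex.

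The data came from 3 brain neurons of 5-day-old flies kept on normal food, all of a single group and with no control or treated group beside it. Their genotype was nSyb-AD-AKHR-BD-GAL4;UAS-mCD8gfp, in which GFP needs both the promoter of nSyb, active in neurons, and that of AKHR, the receptor for the hunger hormone AKH. GFP-positive cells were drawn into a pipette, and their RNA was amplified as cDNA and sequenced. By the study's general methods, flies were virgin females unless stated otherwise, and the labels give no sex. Whether a library holds 1 neuron or a pool is not clear from the labels, and nothing says that the neurons came from separate flies. They are called cells 1, 2 and 3. In cultured fly cells, the study found that lysosome inhibitors raised AKHR protein, while a proteasome inhibitor had little effect. Knock-down of autophagy genes in AKHR+ neurons also raised AKHR protein. The paper proposes the lysosome as the main route. The values below give the RNA level of the proteasome genes in AKHR+ neurons, and the breakdown of AKHR protein was not tested here.

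Expression was given as FPKM, fragment counts divided by transcript length and library size, so that genes can be compared within a cell. Detection meant an FPKM of 1 or more. Cell 1 had 4389 detected genes, fewer than cells 2 and 3, with 6046 and 5626. The estimated depth lay between 6280000 and 6620000 fragments. It is the best fit within a preset range of depths, and it placed 66.2%, 45.3% and 55.4% of low values near whole numbers in cells 1, 2 and 3. Whether the cells differed in depth is therefore not settled by it. AkhR, the gene of the label, had an FPKM of 14.7, 1.90 and 2.52. All 4 neuronal markers (elav, Syt1, brp, Syx1A) passed detection in the 3 cells, and so did all 3 glial markers (repo, wrapper, Gs2), among them the defining glial gene repo at 3.77, 51.5 and 9.63. Summed FPKM was 584 to 813 for the neuronal and 989 to 1106 for the glial list, and the part of glial RNA in the values below was not tested.

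The standard subunits were present in nearly full number. Of the 20 measured, 18 were detected in all 3 cells, where 31.1% of all genes were. By cell, 18, 20 and 20 subunits were detected in cells 1, 2 and 3, against 36.8%, 50.7% and 47.2% of all genes. Cytosolic ribosomal protein genes gave 74 of 84 detected in all cells, and genes of the vacuolar proton pump (Vha), another multi-subunit machine, gave 9 of 13. Both of these sets were taken by name with any paralogs left in, and 6 of 84 and 3 of 13 were listed at 0 in all cells. The 20 subunits leave out the paralogs named with T or R, so the shares of these sets are not directly comparable. The missing subunits were both alpha-ring genes in cell 1, Prosalpha1 and Prosalpha5, so that without cell 1 the count was 20 of 20. Leaving out a cell can only hold or raise such a count. The share of all genes detected in both cells 2 and 3 was not computed.

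Their median level was also nearly the same in each cell. It was 60.9, 63.5 and 69.2 FPKM in cells 1, 2 and 3, or 6.03 ± 0.09 as log2(FPKM + 1) (SD, n = 3). The median FPKM of all detected genes was 41.2, 23.6 and 26.7, so the subunits stood 1.48-fold, 2.70-fold and 2.59-fold above it. Of the 20 subunits, 13, 19 and 18 lay above that median. The 31 genes together took 0.342%, 0.267% and 0.284% of the summed FPKM.

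**Figure D1:**
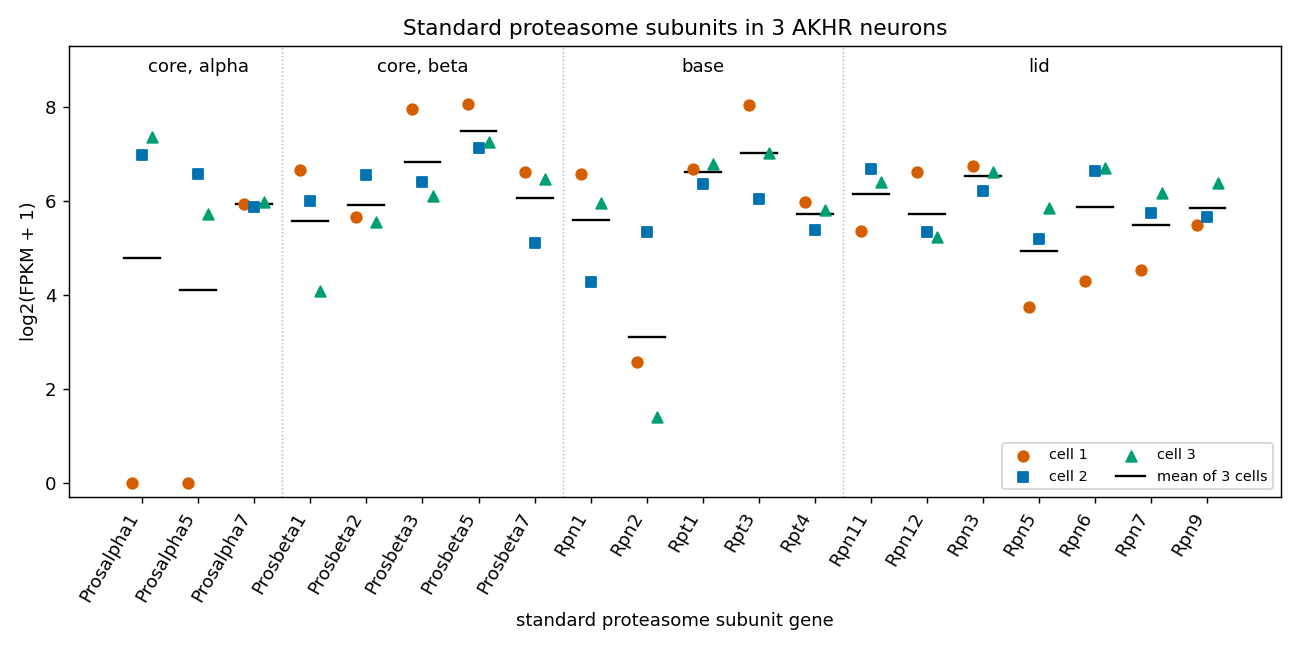
Level of each of the 20 standard proteasome subunits with a line in the table, as log2(FPKM + 1) on the y axis. Circles, squares and triangles are cells 1, 2 and 3 and the bar is their mean. Most points lie near the median of 6.03, Prosalpha1 and Prosalpha5 are at 0 in cell 1, and Rpn2 is the lowest gene by mean.

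Among the catalytic subunits, Prosbeta5, which carries the chymotrypsin-like activity, was the most abundant. In the BDGP6.54 build it spans bases 10819978 to 10821178 of chromosome 2R. Cells 1, 2 and 3 gave it an FPKM of 268, 139 and 152, with a mean of 186 ± 70.9 (SD, n = 3 here and below). It ranked first of the 20 subunits in cells 1 and 2 and behind Prosalpha1 in cell 3, at the 92.3, 90.5 and 89.1 percentiles of detected genes.

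Prosbeta1, the caspase-like subunit (chromosome 2R, 16013805 to 16014787), was measured at 99.99, 62.7 and 15.9 FPKM (mean 59.5 ± 42.1). Prosbeta2, the trypsin-like subunit (chromosome 3L, 14999951 to 15001319), had 49.1, 93.1 and 45.9 (mean 62.7 ± 26.4). Prosbeta5 exceeded both in every cell, while the order of Prosbeta1 and Prosbeta2 was not the same in all cells. The ratio of Prosbeta5 to Prosbeta1 was 2.68, 2.22 and 9.58, and that to Prosbeta2 was 5.46, 1.49 and 3.32. In the assembled core these subunits occur in equal number, so the RNA ratios are not those of the complex, and protein was not measured here.

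Prosbeta3 and Prosbeta7 were the measured beta-ring subunits without a catalytic site, and their order was not the same in all cells. Prosbeta3 (chromosome 3R, 9005313 to 9006226) reached 246, 84.0 and 67.9 FPKM (mean 133 ± 98.3). Prosbeta7 (chromosome 3R, 5357012 to 5358364) had 96.9, 33.5 and 87.7 (mean 72.7 ± 34.2). Cell 1 was the highest for Prosbeta3 and Prosbeta7, as it was for Prosbeta1 and Prosbeta5, which left Prosbeta2 as the exception among the 5 beta genes. Of all genes detected in all cells, 38.2% were highest in cell 1.

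The alpha ring closes the entrance of the core, and the 3 alpha genes measured behaved differently from each other. Prosalpha7 (chromosome 2R, 9846636 to 9847836) reached 60.1, 57.8 and 62.3 FPKM (mean 60.1 ± 2.24), the smallest spread between cells of all 20 subunits. For Prosalpha1 (chromosome 2R, 7827303 to 7828678) cell 1 had a listed 0, and cells 2 and 3 had 125 and 162 FPKM. Prosalpha5 (chromosome 2R, 17412767 to 17413769) likewise had a listed 0 in cell 1, with 94.0 and 51.4 in cells 2 and 3.

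A listed 0 is not a measured absence in amplified RNA of so little material. At the estimated depth of cell 1, 3 fragments of Prosalpha1 or Prosalpha5 would have given an FPKM of 0.484 or 0.516. The other cells held about 735 and 988 fragments of Prosalpha1, and about 519 and 294 of Prosalpha5 (95% Poisson interval 261 to 329 for the smallest of these, for counting error only). Neither gene stood on more than 1 line of the table.

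In the base of the regulatory particle, the 3 ATPase genes measured were detected in each cell. Rpt3 (chromosome X, 11125101 to 11126785) reached 262, 64.4 and 128 FPKM (mean 152 ± 101), and Rpt1 (chromosome 2R, 7652440 to 7653954) had 102, 80.6 and 109.9 (mean 97.6 ± 15.2). Rpt4 (chromosome X, 6289470 to 6291245) was lower, at 61.6, 40.3 and 54.7 (mean 52.2 ± 10.9). Rpt1 exceeded Rpt4 by a ratio of 1.66 to 2.01, and Rpt3 exceeded it by 4.26, 1.60 and 2.34, so Rpt4 was the lowest of the ATPase genes measured in every cell.

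Rpn1 and Rpn2 are the large scaffold proteins of the base, to which ubiquitin receptors and shuttle proteins bind. Rpn1 (chromosome 3L, 19915051 to 19918160) was at 93.5, 18.4 and 61.4 FPKM (mean 57.8 ± 37.6). Rpn2 (chromosome 3R, 29153524 to 29157255) had 4.89, 39.3 and 1.62 (mean 15.3 ± 20.9) and was the lowest standard subunit by mean log2 level. About 35.4 fragments lay behind its value in cell 3 (95% Poisson interval 24.7 to 49.1). Rpn1 was above Rpn2 by a ratio of 19.1 in cell 1 and 37.8 in cell 3 but below it in cell 2, where the ratio was 0.470.

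Transcripts of both scaffold genes are long, with a mean of 3041 bases for Rpn1 and 3354 bases for Rpn2, against a median of 1298.5 bases over the 32 standard genes. Across the 20 subunits, level and transcript length gave a Spearman correlation of -0.06, -0.42 and 0.11 in cells 1, 2 and 3. These are correlations across genes of the same library, given as a description. Among detected genes, Rpn1 was at the 74.6, 42.5 and 73.4 percentiles in cells 1, 2 and 3. Rpn2 was at the 15.2, 66.1 and 2.74 percentiles, above Rpn1 in cell 2 only. The part of transcript length in these levels was not tested.

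The lid was detected in full as far as it was measured, with 7 of 7 genes in each cell, against 36.8%, 50.7% and 47.2% of all genes in cells 1, 2 and 3. Rpn11, the deubiquitinating enzyme that cuts the chain off the substrate (chromosome 2L, 5058404 to 5059790), had FPKM values of 40.0, 102 and 83.7 (mean 75.2 ± 31.8). Rpn6, a clamp between lid, base and core (chromosome 2R, 14750166 to 14752910), had 18.6, 98.1 and 103 (mean 73.4 ± 47.5). Both were lowest in cell 1. Rpn5 (chromosome 3R, 5789493 to 5791569) had 12.4, 35.5 and 56.2, and Rpn7 (chromosome 3R, 22460662 to 22462054) had 22.2, 52.7 and 70.4. Rpn9 (chromosome 3R, 23731375 to 23733462) had 43.7, 49.2 and 82.5. Rpn5, Rpn6, Rpn7 and Rpn9 were thus lowest in cell 1 and highest in cell 3.

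The remaining lid genes ran the other way. Rpn3 (chromosome 2L, 19051790 to 19053681) was at 106, 73.0 and 97.7 (mean 92.3 ± 17.3), and Rpn12 (chromosome 3L, 16583028 to 16584022) had 97.7, 39.4 and 36.3 (mean 57.8 ± 34.6). Both were highest in cell 1, so the 7 lid genes did not share an order of cells. Of the 18 subunits detected in all cells, 5 were lowest in cell 1, and these were Rpn5, Rpn6, Rpn7, Rpn9 and Rpn11, where 38.5% of all genes detected in all cells were lowest in cell 1.

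The parts of the proteasome were then compared within each cell. The median over the 8 core genes exceeded that over the 12 genes of the regulatory particle by 0.37 ± 0.53 on the log2 scale (SD, n = 3), with the core higher in 2 of 3 cells. The base minus lid difference was 0.14 ± 0.93, with 1.20 in cell 1, -0.38 in cell 2 and -0.42 in cell 3. The alpha minus beta difference was -2.21 ± 3.86, and this mean rests on cell 1, in which 2 of 3 alpha genes were listed at 0. It was -6.66 in cell 1 and 0.16 and -0.12 in cells 2 and 3. Each of these differences was smaller than its spread between cells.

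**Figure D2:**
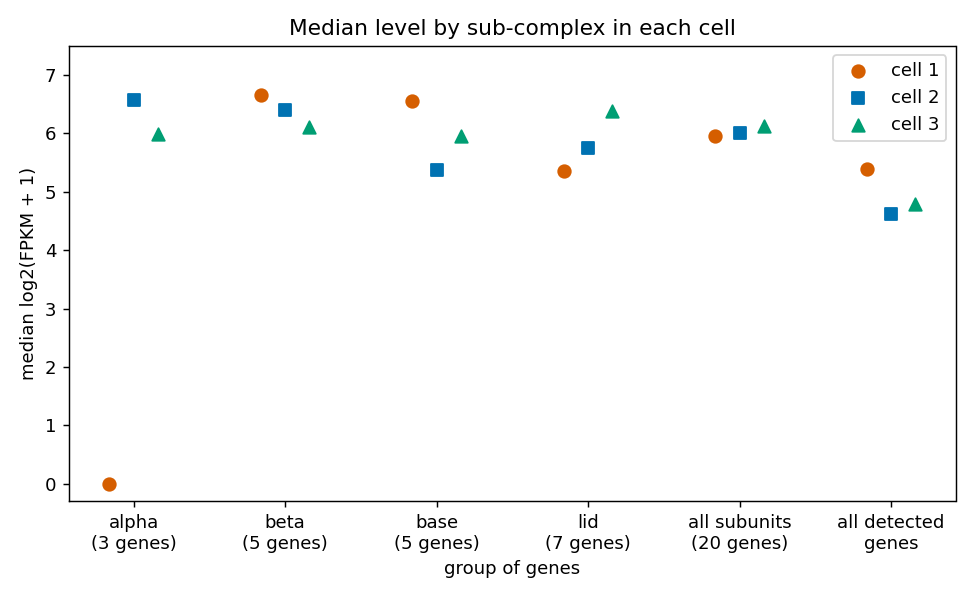
Median log2(FPKM + 1) over the measured genes of each part of the proteasome, with the number of genes under each name and all detected genes at the right. Circles, squares and triangles are cells 1, 2 and 3. The medians over all 20 subunits lie between 5.95 and 6.13, while those of the base and the lid change their order between cell 1 and the other cells, and the alpha median of cell 1 is 0.

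The paralogs named with T or R gave nearly no signal. None of the 11 was detected in any cell (0 of 11), where 57.7% of all genes were. Of the 11, 10 were listed at 0 in all cells, as were 39.5% of all genes. These were Prosalpha3T, Prosalpha6T, Prosbeta2R1, Prosbeta2R2, Prosbeta4R1, Prosbeta4R2, Rpn12R, Rpt3R, Rpt4R and Rpt6R. At the estimated depths, 3 fragments would have given these genes an FPKM of 0.313 to 0.576, the level that a count of 0 allows for counting error only.

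Prosalpha1R was the single paralog above 0, at 0.0443 FPKM in cell 3 and 0 in cells 1 and 2. That value corresponds to 0.264 of a fragment at the estimated depth, less than 1 whole fragment. Prosalpha1R lies on chromosome 2R from 7830413 to 7831771, 1734 bases from Prosalpha1 on the same strand. How the quantifier divided reads between these neighbors is not given in the sources used here, and the part of shared reads in this value was not tested.

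For 6 pairs, both a standard gene and its paralog were measured. The standard gene was higher in every cell in 5 of them. On the log2(FPKM + 1) scale the difference averaged 7.03 ± 1.01 for Rpt3 over Rpt3R, 5.71 ± 0.31 for Rpt4 over Rpt4R, 5.73 ± 0.78 for Rpn12 over Rpn12R, and 5.92 ± 0.55 for Prosbeta2 over both Prosbeta2R1 and Prosbeta2R2. Each had an exact two-sided sign-flip permutation p of 0.25, the smallest that 3 cells can give. For Prosalpha1 over Prosalpha1R the difference was 4.76 ± 4.12, with both at 0 in cell 1 (exact permutation p = 0.5). In the 5 pairs the paralogs were listed at 0, so each difference is the standard gene's own level. Its p follows from the detection of that gene in all cells, and the values of Prosbeta2 enter for both of its paralogs. All 6 differences depend on the pseudocount of 1 and give no fold.

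Markers of the testis were examined beside the paralogs. Of 12 testis genes, 9 were listed at 0 in all cells, among them bam, aly, can, dj and Mst87F, where 39.5% of all genes were. The exceptions were twe, at 2.41, 9.15 and 41.8 FPKM in cells 1, 2 and 3, mia at 25.9 in cell 3, and betaTub85D at 12.4 in cell 2. The summed FPKM of the list was 2.41, 21.6 and 67.7.

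The genes themselves differ in structure. Of the 16 annotated paralogs, 6 have a single exon, as have 4 of the 32 standard genes. The standard genes are spread over 5 chromosome arms, with 10 on 2R, 9 on 3R, 5 on 3L and 4 each on 2L and X. Prosbeta4R1 and Prosbeta4R2 are neighbors on chromosome 2L with 1467 bases between them. Among the measured standard genes, 8 share exon bases with a gene on the opposite strand. For 7 of them the stretch takes 1.29% (Prosbeta1) to 7.93% (Prosbeta2) of the subunit's exon bases. Since the counting is not stated to use strand, reads of these short stretches cannot be told apart.

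Single subunits varied between cells far more than their median did. The difference between the highest and the lowest cell had a median of 1.56 on the log2 scale over the 20 subunits, from 0.11 for Prosalpha7 to 7.35 for Prosalpha1. It was below 2-fold for 6 subunits, and at least 4-fold for 8, which were Prosalpha1, Prosalpha5, Prosbeta1, Rpn1, Rpn2, Rpn5, Rpn6 and Rpt3. The share of all genes below 2-fold was not computed. The lower quartile of the difference was 0.93 for the 20 subunits, 1.39 for genes detected in any cell and 0.96 for those detected in all cells. Of the genes detected in any cell, 60.5% reached 4-fold. Of those detected in all cells, 36.8% did, against 6 of the 18 subunits detected in all cells, so the share among subunits was near the background. The median spread of these 18 was 1.45, and that of all 3709 such genes was 1.59.

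The most even genes were Prosalpha7 (0.11), Rpt1 (0.44) and Rpn3 (0.54), and the least even were Prosalpha1 (7.35), Prosalpha5 (6.57) and Rpn2 (3.94). Cell 1 differed from the others more than those differed from each other, and without it the median spread of the 20 subunits was 0.44 in place of 1.56. For the 18 subunits detected in all cells, the median absolute difference was 0.44 between cells 2 and 3, 1.25 between cells 1 and 2, and 0.97 between cells 1 and 3. For all 3709 such genes these medians were 0.78, 1.13 and 0.94.

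The direction of change was mixed in each pair of cells. From cell 1 to cell 2, 9 subunits were higher and 11 lower, with a median difference of -0.20. From cell 1 to cell 3 the counts were again 9 and 11 (median -0.11), and from cell 2 to cell 3 they were 13 and 7 (median 0.25). Of the 18 subunits detected in all cells, 9 were highest in cell 1, 3 in cell 2 and 6 in cell 3, and the background was 38.2%, 32% and 29.8%.

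Ribosomal protein genes, another set whose products are needed in fixed ratio, were set beside them. Of the 74 detected in all cells, 70 were highest in cell 2, with a median difference of 1.44 from cell 1 to cell 2 and -0.88 from cell 2 to cell 3. For the 18 proteasome genes the same medians were -0.44 and 0.27. The spread of single genes was alike, with a median of 1.51 over the 74 ribosomal genes and 1.15 over the 9 proton pump genes. These values describe 3 libraries, and the difference between the sets was not tested.

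**Figure D3:**
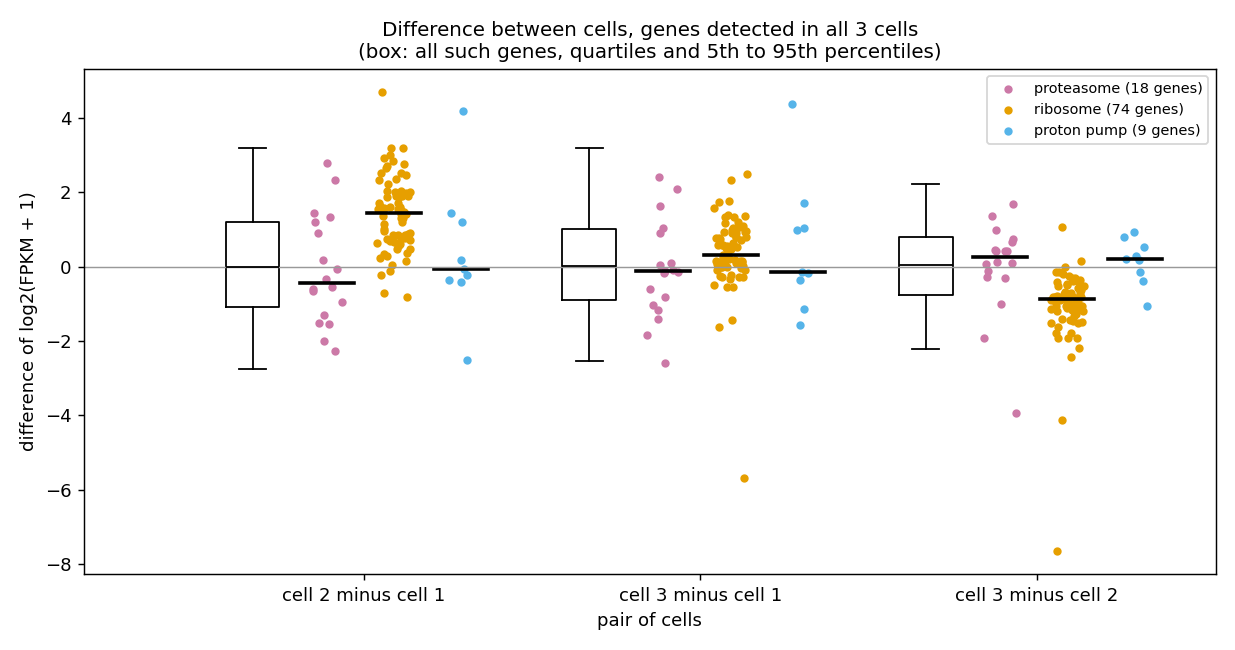
Difference of log2(FPKM + 1) between each pair of cells (y axis) for genes detected in all 3 cells. Boxes give the quartiles and the 5th to 95th percentiles of all 3709 such genes, dots are single genes and black bars are the medians of 18 proteasome, 74 ribosomal and 9 proton pump genes. Proteasome genes lie on both sides of 0 in each pair, and most ribosomal genes lie above 0 for cell 2 minus cell 1.

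The order of the subunits was only in part shared between cells. Across the 18 genes detected in all cells, Spearman's correlation of FPKM was 0.29 between cells 1 and 2. It was 0.42 between cells 1 and 3 and 0.50 between cells 2 and 3. Across the 3709 genes the same pairs gave 0.58, 0.66 and 0.72. These are descriptions across genes of the same libraries, and the levels of the subunits cover a narrower range than those of all genes. The SD of log2 FPKM among detected subunits was 1.54, 0.74 and 1.44 in cells 1, 2 and 3, against 2.32, 2.04 and 2.07 among all detected genes. In cell 2, 18 of 20 subunits lay within 2-fold of their median, compared with 11 in cell 1 and 16 in cell 3. The share of all detected genes within 2-fold of their own median was not computed. The interquartile range of log2 level was 1.31, 1.22 and 0.88 among subunits in cells 1, 2 and 3, against 3.20, 2.44 and 2.52 among all detected genes.

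Other genes of the ubiquitin-proteasome pathway were measured from a list of 22, of which 15 had a line. All 15 were detected in at least 1 cell, against 57.7% of all genes, and 11 were detected in all cells, against 31.1%. Ubiquitin is made as a fusion with a ribosomal protein or as a chain of repeats. The fusion genes RpL40 and RpS27A were the highest of the list by mean log2 level. RpL40 had an FPKM of 1075, 1939 and 1202 in cells 1, 2 and 3, and RpS27A had 601, 1495 and 901. Both were highest in cell 2. They are themselves among the 74 ribosomal protein genes above, of which 70 were highest in cell 2, so this is no separate observation.

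Of the genes for ubiquitin chains, Ubi-p5E had an FPKM of 1250, 238 and 497, and Ubi-p63E had 8.49, 40.3 and 71.6. They ran in opposite order, Ubi-p5E being highest and Ubi-p63E lowest in cell 1. Repeats of ubiquitin are nearly identical between such genes, so the division of reads between them is uncertain.

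Pomp, the chaperone needed to build the core, had an FPKM of 261, 39.2 and 108 (mean 136 ± 114, SD, n = 3). REG, a ring-shaped activator that can bind the core in place of the regulatory particle, had 171, 66.2 and 43.5. Like 4 of the 5 beta genes, both were highest in cell 1, where 38.2% of all genes detected in all cells were highest. A shared pattern of these genes was not tested. Rad23 and Ubqn shuttle ubiquitinated proteins to the proteasome. Rad23 had 242, 76.3 and 180, while Ubqn had 31.9, 43.9 and 49.8. Ufd1, a cofactor of the unfoldase TER94, had 125, 28.6 and 185, which made cell 2 the lowest for Ufd1, Rad23 and Pomp.

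The transcription factor Cnc, related to the mammalian Nrf factors, can raise the expression of proteasome genes. Its gene cnc had an FPKM of 0.829, 13.5 and 31.9, below the detection threshold in cell 1. Its partner gene maf-S was detected in each cell, at 115.3, 190.3 and 256. Both were lowest in cell 1 and highest in cell 3. Of the rest, Uba1 was detected in all cells, and Keap1, Pngl and ntc, named after their values were seen, were listed at 0 in cell 1. Of all 11922 genes, only 4969 were above 0 in cell 1, so a listed 0 there was common.

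**Figure D4:**
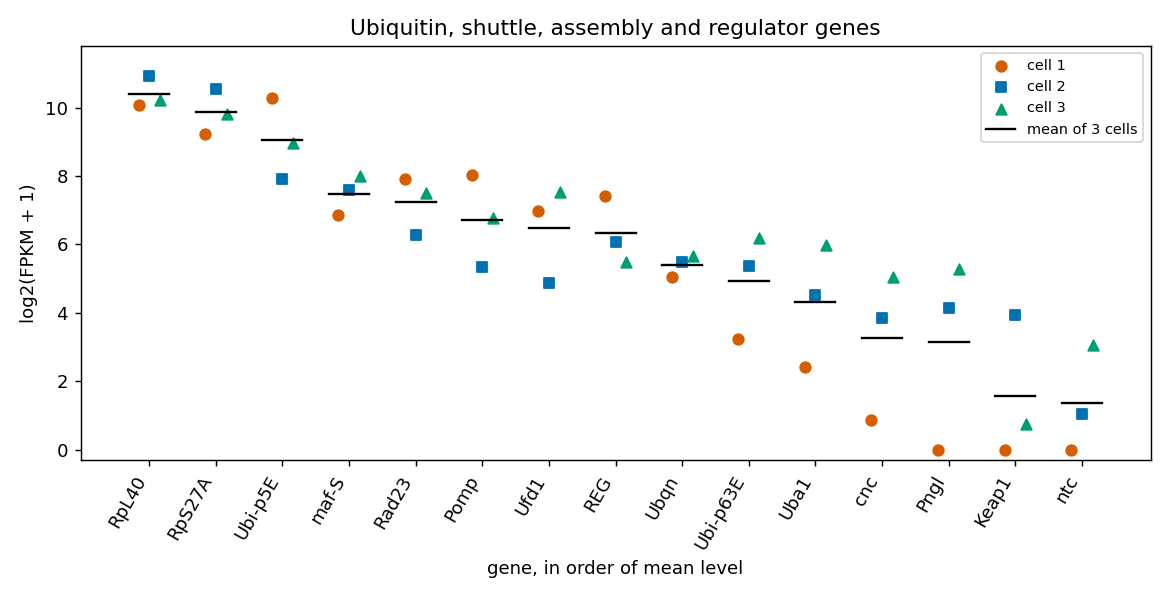
Level of the 15 other genes of the ubiquitin-proteasome pathway as log2(FPKM + 1), in order of their mean. Circles, squares and triangles are cells 1, 2 and 3 and the bar is their mean. The fusion genes RpL40 and RpS27A have the highest means, and Pngl, Keap1 and ntc are at 0 in cell 1.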

How the data were processed

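Per the labels, low-quality reads, adaptors and amplification primer were removed, reads were mapped to the fly genome (HISAT is named in the submitters' processing notes) and the authors deposited FPKM per gene. The quantifier, genome build and annotation are not given in the sources used here. No molecular identifiers are described, so PCR copies count as fragments. FPKM is relative to all mapped fragments, so abundant transcripts lower every other value of that cell.

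Each cell had 12180 lines for 11922 FlyBase IDs, and repeated IDs (117, none a subunit) were averaged. Symbols, coordinates and lengths came from the Ensembl annotation of BDGP6.54, which may differ from the authors' build, and were found for 11794 IDs. The value column of cell 3 is headed with another sample number than its label. Depth was estimated as the number of fragments, within a preset range, that best placed low values of single-transcript genes on whole numbers (66.2%, 45.3% and 55.4% within 0.1). From it, approximate fragments, exact 95% Poisson intervals and floors of 3 fragments were computed, all approximate and for counting error only.

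The scale of all comparisons was log2(FPKM + 1), which understates differences of low genes. The base was Rpt genes, Rpn1, Rpn2 and Rpn13, and the lid Rpn3, Rpn5 to Rpn9, Rpn11 and Rpn12. Single pairs of genes were compared by an exact sign-flip permutation test over 3 cells. The members and lists were chosen with earlier results of these data known. All members could be named, and of the pathway list 10 genes by mean level, cnc and Pomp. Alternatives were other pseudocounts, thresholds, summaries and scalings, and leaving out each cell. Python 3.11.15, pandas 2.3.3 and SciPy 1.17.1 were used.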

Additional observations from a re-analysis of the deposited data

How the results depend on the processing

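The 14 results had 75 values under alternatives, of which 67 kept their direction or stayed within the spread between cells (for counts, within 1.5 times), 5 moved and 3 changed sign. Among the 67 are all alternatives of the 6 single pairs of a standard gene and its paralog. These were judged by sign alone, which could not change with the paralogs at or near 0, so they show no stability. The count of 0 detected paralogs could not change either with a cell left out or a threshold of 10. The count of 5 pairs with the standard gene higher could not change with the pseudocount and could only hold or rise without a cell. Those values, also among the 67, show no stability. The base minus lid difference of 0.14 became -0.18 with means over subunits in place of medians and -0.40 without replicate 1, and ranged from -0.40 to 0.41 across the 3 values that each left out a replicate. The alpha minus beta difference of -2.21 became 0.019 without replicate 1, ranging from -3.39 to 0.019, since both listed zeros are in that cell. The median level of the subunits, 6.03, went to 6.98 when each cell was rescaled to a sum of 1000000, to 5.76 with the mean over subunits, to 6.14 with detected subunits only, and to 1.09 as the difference from the median of detected genes, the last chosen after seeing the data. Rescaling raised the median of detected genes by 1.01, 0.92 and 0.87 in cells 1, 2 and 3. At any FPKM above 0 the count of paralogs was 1 in place of 0. Leaving out Rpn2, also chosen after seeing the data, gave a base minus lid difference of 0.41 and a core minus regulatory particle difference of 0.23. Counting Rpn10 in the base was not run, because Rpn10 is not analysed here. The detection of 18 subunits ranged from 18 to 20 without each replicate, and the median spread of 1.56 from 0.44 to 1.31, where only 2 cells enter. Leaving out a cell can only hold or raise such a count, and can only hold or lower the spread of a gene. No paired analysis was possible because there is a single group. With 3 cells no permutation p could fall below 0.25, so those tests show no stability.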
